A study of Rattus norvegicus with 21 samples.

Results

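Chemokines are small secreted proteins that guide migrating cells, and they are named CC, CXC, XC or CX3C after the spacing of their first cysteines. They bind G protein-coupled receptors that signal through inhibitory G proteins, while the atypical receptors bind chemokines without such signalling and remove them. In endocrine tissue they are made by stromal, endothelial and resident immune cells, and by the epithelial cells themselves. The genes described here were all those whose only symbol in the platform annotation was Ccl, Cxcl, Ccr or Cxcr with a number, or Cx3cl1, Xcl1, Xcr1 or Ackr1 to Ackr4. This gave 50 of the 14506 singly named genes of the array, each with 1 probe set, namely 33 ligands, 15 receptors and 2 atypical receptors (Ackr2 and Ackr3).

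The arrays held 16 pituitary adenoma lesions of rats homozygous for the p27Kip1 mutation, whose gene is Cdkn1b (spelled Cdknb1 in the labels), and 5 normal pituitaries of wildtype rats, all of the Sprague–Dawley white eye/Wistar–Kyoto background. Lesions with the same sample number were averaged, which left 9 adenoma values, numbered 1 to 9 here, and 5 wild-type values. The adenoma numbers came from 6 female and 3 male rats aged 7 to 12 months, and the wild-type pituitaries from 2 female and 3 male rats aged 6 months, so genotype and age cannot be told apart. Tissue was macrodissected and the tumors are described as mainly of gonadotroph origin, and whether each wild-type sample was the whole gland is not given in the sources used here. All values are log2 RMA intensities, a normalized array scale on which a difference of 1 is a 2-fold change.

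In the adenomas, Cdkn1b mRNA was at 9.23 ± 0.17 (SD, n = 9), against 8.91 ± 0.19 in wild-type pituitaries (SD, n = 5), with a log2 fold change of 0.33 (limma, adjusted p = 0.0324). Of 4 gonadotroph markers, Cga and the GnRH receptor gene Gnrhr were higher in adenomas, and the hormone subunits Lhb and Fshb were lower. The mean level of 19 macrophage markers was 7.02 to 7.72 in adenomas, against 6.59 to 7.13 in wild-type pituitaries, and 9 of the 19 were higher and 0 lower (47.4% and 0%, against 8.49% and 9.06% of all probe sets). The mean level of 9 folliculostellate markers was 6.66 to 7.35 in adenomas, against 7.15 to 7.78 in wild-type pituitaries, and 0 were higher and 4 lower. For the 7 somatotroph, lactotroph and thyrotroph markers it was 8.94 to 10.11 in adenomas, against 10.71 to 11.03 in wild-type pituitaries, and for the 6 posterior lobe markers 6.15 to 6.59 in adenomas, against 6.86 to 7.03 in wild-type pituitaries. Fewer cells of a type and less RNA per cell cannot be told apart in such bulk samples, and the part of these markers in the results below was not tested except where a correlation is given. A single array stood apart from the others, the lesion labelled replicate 5, which was 1 of 3 lesions of adenoma number 3, and it is described below.

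Of the 50 genes, 3 CC ligands were higher in adenomas (Ccl6, Ccl7 and Ccl2), and 6 genes were lower, namely the ligands Cxcl13, Cxcl14, Cxcl12, Cxcl17 and Ccl17 and the atypical receptor Ackr3. A gene was called at a Benjamini-Hochberg adjusted p under 0.05 over all 29214 probe sets in limma's moderated test. The 3 higher genes were 6% of the members, against 8.49% of all probe sets, and the 6 lower genes were 12%, against 9.06%. Among probe sets with 1 symbol the background was 12% higher and 9.63% lower. With a fold over 2 also required, 1 gene was higher (Ccl6), against 1.43% of all probe sets, and 2 were lower (Cxcl13 and Cxcl14), against 1.05%. The counts without this fold were near the background, and the median log2 fold change of the 50 genes (−0.02) was near that of all probe sets (−0.03). Without the lesion that stood apart, the counts were 3 higher and 6 lower again, and the same 9 genes passed.

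Of 19 CC ligands, 3 were higher and 1 lower (15.8% and 5.26%), and of 12 CXC ligands, 0 were higher and 4 lower (0% and 33.3%), against the 8.49% and 9.06% of all probe sets. Most ligands of both classes were not called, and the difference between the classes was not tested. None of the 15 conventional receptors was called in either direction, with log2 fold changes from −0.26 to 0.36, though Cxcr3 and Ccr1 passed in some other fits given below. The 41 genes that were not called lay between −0.26 and 0.58. For 37 of the 50 genes both group means were below the median of all probe-set means (6.44), and the fold changes of such dim probe sets are understated on this scale.

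**Figure D1:**
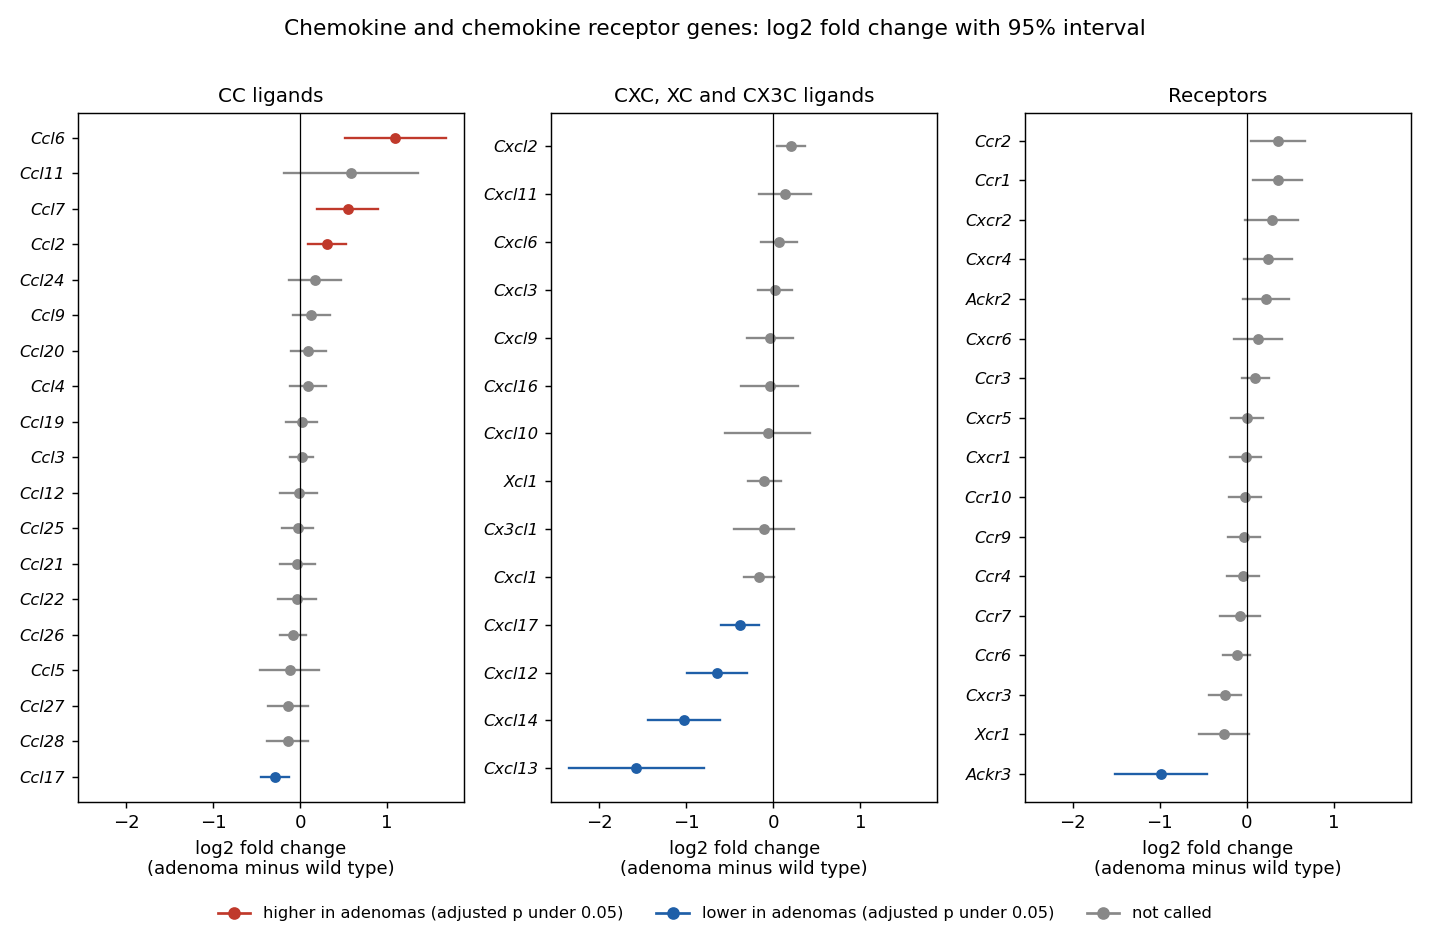
Log2 fold change (horizontal axis, adenoma minus wild type) of all 50 genes, with 95% intervals from limma, in panels of CC ligands, other ligands and receptors. Red genes were called higher in adenomas and blue genes lower. The 3 red genes are all CC ligands, 4 of the 6 blue genes are CXC ligands, and the only blue receptor is Ackr3.

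Ccl6, a CC chemokine that acts through Ccr1 in the mouse, had the highest fold change of the 50 genes. It was at 5.54, 6.40 and 7.31 (lowest, median and highest) in the 9 adenomas, against 5.80, 5.42, 5.33, 4.84 and 4.86 in the wild-type pituitaries 1 to 5. The groups overlapped, and 6 of 9 adenomas lay above all 5 wild-type values. Ccl6 was 2.14-fold higher in adenomas (log2 fold change 1.10, SE 0.27, adjusted p = 0.0133 from limma). The overlapping adenomas were numbers 4, 6 and 7, at 5.79, 5.60 and 5.54, from rats aged 7, 8 and 12 months. The Ccl6 call was lost in 3 of 16 other settings. These were either prefix alone and adenomas of 7 or 8 months alone (log2 fold change 0.45, adjusted p = 0.718, limma). Ccl6 is a rodent gene and the array measured it in whole tissue, so the cells that made it are not known here. Its level over the 9 adenomas had a Pearson's r of 0.52 with the mean of the macrophage markers (Spearman's rho 0.37, exact permutation p = 0.154, two-sided, adjusted p = 0.863), and r was 0.07 without the 2 adenomas farthest from the median macrophage level.

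Ccl7 and Ccl2 are monocyte-attracting ligands of Ccr2 and lie next to each other on chromosome 10, followed by the eotaxin gene Ccl11 and by Ccl12 (order from RefSeq, GRCr8). Ccl7 was at 6.00, 6.45 and 7.01 in adenomas (lowest, median and highest), against 5.87, 6.03, 5.69, 6.28 and 5.86 in wild-type pituitaries, and 5 of 9 adenomas were above all wild-type values. This was a log2 fold change of 0.55 (SE 0.16, adjusted p = 0.0314, limma). Ccl2 was at 5.74, 6.04 and 6.18 in adenomas, against 5.48, 5.63, 5.96, 5.87 and 5.60 in wild-type pituitaries, and 6 of 9 adenomas were above all wild-type values. Its difference was small, at 0.31 (SE 0.10, adjusted p = 0.0489, limma), and its call was lost in 11 of the 14 fits that left out 1 sample number. Ccl7 did not pass when wild-type pituitary 3, wild-type pituitary 5 or adenoma number 3 was left out (adjusted p up to 0.086 over the 14 fits).

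Ccl11, which attracts eosinophils through Ccr3, had the largest spread over the adenomas of all 50 genes (SD 0.79, n = 9). It was at 4.68, 5.74 and 6.83 in adenomas (lowest, median and highest), against 6.04, 4.56, 5.05, 4.89 and 5.24 in wild-type pituitaries. Adenoma numbers 1, 3, 4 and 9 lay at 6.54, 6.33, 6.18 and 6.83, above all wild-type values, while numbers 2, 5 and 8 lay at 4.84, 4.68 and 4.90. Within a number its lesions lay close together, with an SD of 0.19 (pooled over the 5 numbers with several lesions). The group difference of Ccl11 was not called (log2 fold change 0.58, SE 0.36, adjusted p = 0.278, limma). Its neighbour Ccl12 averaged 5.14 in adenomas and 5.15 in wild-type pituitaries (log2 fold change −0.02, 95% interval −0.23 to 0.19). On the same chromosome, Ccl6 is flanked by Ccl9 and Ccl3, whose log2 fold changes were 0.13 (−0.09 to 0.34) and 0.02 (−0.12 to 0.15).

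**Figure D2:**
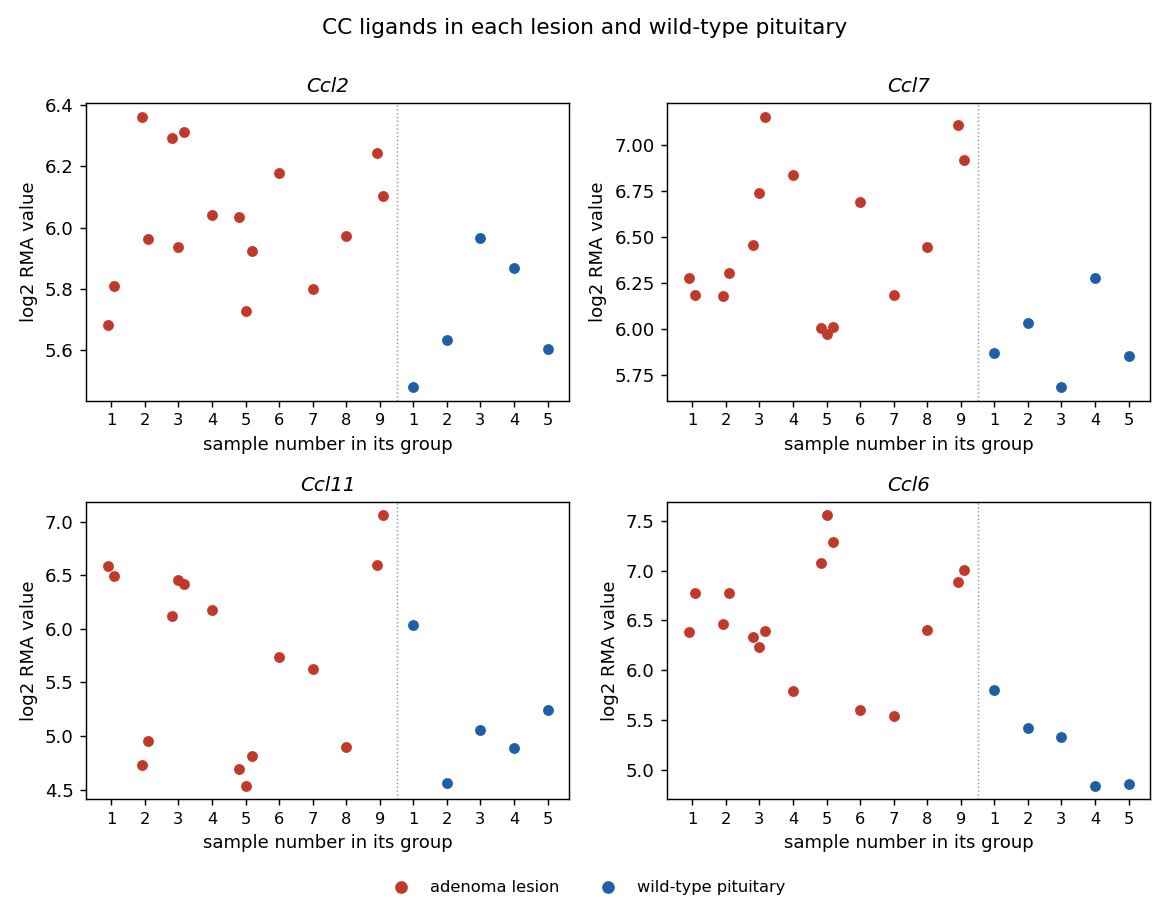
Log2 RMA values (vertical axis) of 4 CC ligands in each adenoma lesion (red, grouped by adenoma number 1 to 9) and each wild-type pituitary (blue, 1 to 5). For Ccl11 the lesions of 1 number lie close together, high in numbers 1, 3, 4 and 9 and low in numbers 2, 5 and 8, whereas Ccl6 was highest in number 5.

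Cxcl14 was the only one of the 50 genes whose groups did not overlap, with all 9 adenomas below all 5 wild-type pituitaries, as in 2.16% of all probe sets. No gene had all 9 adenomas above, as in 2.66% of all probe sets. Cxcl14 is a chemokine of normal epithelia whose receptor is unsettled. It was at 6.64, 7.04 and 7.71 in adenomas (lowest, median and highest), against 8.91, 7.98, 8.26, 8.02 and 7.89 in wild-type pituitaries, which was 2.04-fold lower in adenomas (log2 fold change −1.03, SE 0.19, adjusted p = 0.00255, limma). It had the smallest adjusted p of the members, and its call was kept in all 14 fits that left out 1 sample number (log2 fold changes −1.11 to −0.86). Its highest adenoma values, 7.71 and 7.62, were those of numbers 4 and 6, aged 7 and 8 months. With these alone the log2 fold change was −0.55 and not called (adjusted p = 0.645, limma), and the call was also lost in prefix 08 alone. Its slope over the adenomas was −0.12 log2 units per month (unadjusted p = 0.035, adjusted p = 0.386, limma).

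Cxcl13, which draws B cells into lymphoid follicles through Cxcr5, had the lowest fold change. It was at 4.02, 4.35 and 6.29 in adenomas, against 6.30, 6.50, 7.15, 5.31 and 6.00 in wild-type pituitaries. In 7 of 9 adenomas it was below all wild-type values, and the exceptions were numbers 3 and 7, at 6.29 and 5.62. Cxcl13 was 2.98-fold lower in adenomas (log2 fold change −1.57, SE 0.37, adjusted p = 0.00886, limma). The value of number 3 came from the lesion that stood apart, and without this lesion number 3 was at 4.66, 8 of 9 adenomas were below all wild-type values, and the log2 fold change was −1.76 (SE 0.27, adjusted p = 0.000695, limma). The Cxcl13 call was lost in 7 of 16 other settings, namely the 16 lesions as independent samples (adjusted p = 0.0577), with the sample number as a random block (0.10) or in the methods' t-test (0.0842), the replicate block (log2 fold change −0.92, adjusted p = 0.496), either prefix alone and adenomas of 7 or 8 months alone. The B cell markers measured (3 genes, Cd79b and Ms4a1 among them) were called neither higher nor lower, and Cxcr5 was at 5.61 ± 0.12 in adenomas and 5.61 ± 0.20 in wild-type pituitaries (SD, n = 9 and 5).

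Cxcl12, the ligand of Cxcr4 and Ackr3, and Ackr3, which takes up Cxcl12 and Cxcl11, were both lower in adenomas. Cxcl12 was at 6.27, 6.80 and 7.04 in adenomas (lowest, median and highest), against 7.00, 7.70, 7.72, 7.49 and 6.89 in wild-type pituitaries, and 7 of 9 adenomas were below all wild-type values (log2 fold change −0.65, SE 0.16, adjusted p = 0.0132, limma). Ackr3 was at 6.69, 7.68 and 8.65 in adenomas, against 9.01, 9.01, 8.60, 8.63 and 8.15 in wild-type pituitaries, with the 2 overlapping adenomas, numbers 2 and 5, at 8.30 and 8.65 (log2 fold change −0.99, SE 0.25, adjusted p = 0.0139, limma). Cxcr4, the signalling receptor of Cxcl12, was at 7.07, 7.33 and 7.96 in adenomas, against 7.26, 7.07, 7.42, 7.00 and 7.30 in wild-type pituitaries. Its log2 fold change of 0.24 did not pass the test (95% interval −0.04 to 0.52, adjusted p = 0.212, limma). The ligand and the atypical receptor were thus called lower, while the interval for Cxcr4 covered 0.

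Ccl17, a ligand of Ccr4, and Cxcl17, a chemokine of mucosal surfaces, were lower by smaller amounts. Ccl17 was at 6.45, 6.61 and 6.86 in adenomas, against 6.83, 6.85, 6.78, 7.06 and 7.01 in wild-type pituitaries (log2 fold change −0.29, SE 0.075, adjusted p = 0.0154, limma). Cxcl17 was at 5.94, 6.21 and 6.41 in adenomas, against 6.36, 6.54, 6.55, 6.95 and 6.60 in wild-type pituitaries (log2 fold change −0.39, SE 0.10, adjusted p = 0.018, limma). Adenomas overlapped the wild-type range in 1 case for Ccl17 and in 3 for Cxcl17. Both calls were lost without wild-type pituitary 4, at adjusted p = 0.0502 and 0.0572. The genes beside Ccl17 on chromosome 19, Cx3cl1 and Ccl22, had log2 fold changes of −0.11 and −0.03 and were not called. Cx3cl1 was at 6.59, 6.83 and 7.77 in adenomas (lowest, median and highest), against 6.94, 7.31, 7.16, 6.94 and 6.99 in wild-type pituitaries, with 6 of 9 adenomas below all wild-type values and number 3 above them.

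**Figure D3:**
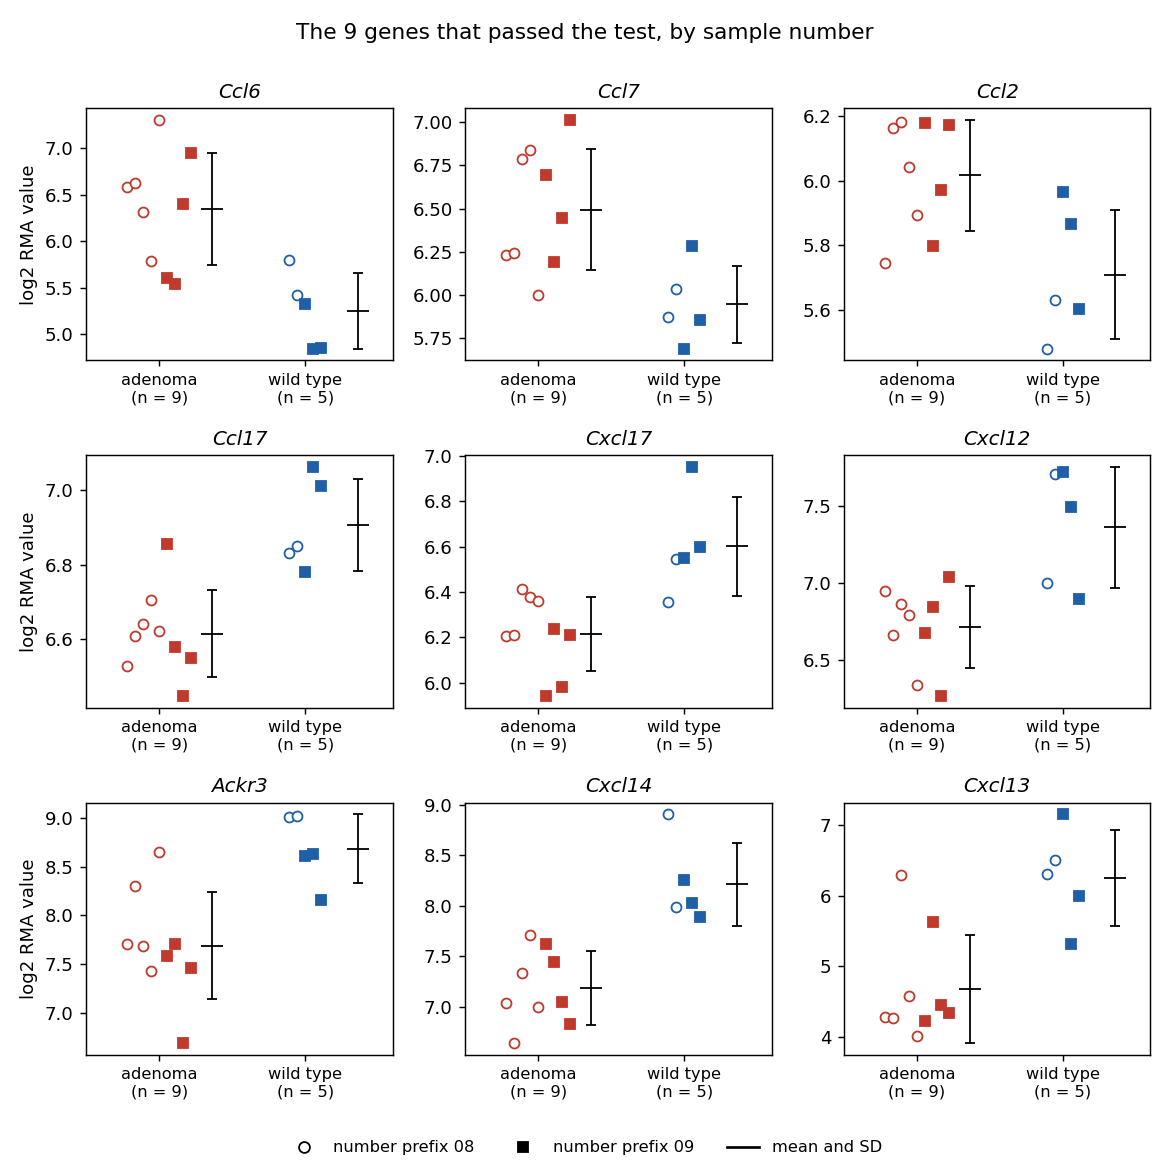
Log2 RMA values (vertical axis) of the 9 called genes in the 9 adenoma numbers (red) and the 5 wild-type pituitaries (blue), with open circles for sample numbers of prefix 08, filled squares for prefix 09, and bars for mean and SD. For Cxcl14 alone the groups do not overlap, and for Ackr3 and Cxcl13 the 2 highest adenomas lie within the wild-type range.

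Sample numbers began with 08 or 09, and both groups held both. Within prefix 08 (5 adenomas and 2 wild-type pituitaries) and within prefix 09 (4 and 3), all 9 genes kept the sign of their log2 fold change, for example 0.92 and 1.11 for Ccl6, −1.30 and −0.82 for Cxcl14, −1.71 and −1.49 for Cxcl13, −0.63 and −0.66 for Cxcl12, and −1.05 and −1.10 for Ackr3. In prefix 08 alone none of the 50 genes passed in limma, where 1.24% of all probe sets were higher and 1.18% lower. In prefix 09 alone Ccr1 was higher, and Ackr3, Cxcl14 and Cxcl17 were lower, where 6.79% of all probe sets were higher and 6.57% lower. All 4 adenoma numbers of prefix 09 were female.

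Of the receptors, Ccr1 and Ccr2, both carried by monocytes and macrophages, and Cxcr3, carried by activated T cells, had an unadjusted p under 0.05 without passing the adjustment. Ccr1 was at 3.96, 4.34 and 5.03 in adenomas (lowest, median and highest), against 4.16, 4.24, 3.96, 4.00 and 4.03 in wild-type pituitaries, with 8 of 9 adenomas above all wild-type values and 1 below them (log2 fold change 0.35, adjusted p = 0.0811, limma). Ccr2 was at 5.18, 5.48 and 6.22 in adenomas, against 5.18, 5.31, 5.40, 5.25 and 4.96 in wild-type pituitaries (log2 fold change 0.36, adjusted p = 0.102, limma). Cxcr3 was at 5.83, 6.10 and 6.27 in adenomas, against 6.39, 6.22, 6.19, 6.53 and 6.46 in wild-type pituitaries (log2 fold change −0.25, adjusted p = 0.0552, limma). Cxcr3 passed as lower in 5 of 16 other settings, which were the 3 fits on separate lesions (lowest adjusted p = 0.013), sex as a covariate and the adjustment over singly named probe sets, and without wild-type pituitary 2 or 3. Ccr1 passed as higher without adenoma number 4 (adjusted p = 0.0303) and in prefix 09 alone. The ligand Cxcl2, a neutrophil attractant, was at 4.06, 4.27 and 4.39 in adenomas, against 4.11, 4.06, 4.02, 3.86 and 4.19 in wild-type pituitaries (log2 fold change 0.20, adjusted p = 0.0852, limma), and it passed when arrays were centred on their medians (0.24, adjusted p = 0.039) or quantile normalized (0.27, adjusted p = 0.0294). In total 6 genes were higher and 7 lower at an unadjusted p under 0.05, against 14.6% and 18% of all probe sets.

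Ligands could be set beside their receptors. For Ccl2 and Ccl7, which were called higher, the receptor Ccr2 missed the threshold, and for Ccl6 the receptor Ccr1 missed it. For Ccl17, which was lower, the receptor Ccr4 had a log2 fold change of −0.04 (95% interval −0.23 to 0.14). Ccr3, the receptor of Ccl11 and Ccl24, was at 0.10 (−0.05 to 0.25). Cxcr2, which binds the neutrophil attractants Cxcl1, Cxcl2, Cxcl3 and Cxcl6, was at 0.29 (−0.02 to 0.59), and its ligands lay between −0.16 and 0.20. The pairs Cxcl16 with Cxcr6 (−0.04 and 0.13), Xcl1 with Xcr1 (−0.11 and −0.26), Ccl20 with Ccr6 (0.10 and −0.12) and Ccl25 with Ccr9 (−0.03 and −0.03) were not called on either side. Of the homing ligands, Ccl19 and Ccl21 and their receptor Ccr7 had log2 fold changes of 0.02, −0.03 and −0.08.

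The lesion labelled replicate 5 carried the highest values of the CXC ligands Cxcl9, Cxcl10 and Cxcl11, which are induced by interferons and bind Cxcr3, and of Cxcl13. This pattern was chosen for description after the values were seen. Cxcl10 was at 9.36 in this lesion, against 4.99 to 5.96 in the other 15 lesions and 5.26 to 6.19 in wild-type pituitaries, which was 16.2-fold over the median of the other lesions. Cxcl13 was at 9.55, against 3.85 to 5.62 in the other lesions and 5.31 to 7.15 in wild-type pituitaries, or 36.8-fold over the median of the other lesions. Cxcl9 was at 6.55, against 4.43 to 5.31 in the other lesions, and Cxcl11 at 6.43, against 4.43 to 5.16. These 4 of the 50 genes (8%) lay more than 1 log2 unit above all other lesions, as did 191 of all probe sets (0.654%). In each of the other 15 lesions at most 14 probe sets, and none of the 50 genes, did so.

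The other lesions of the same rat, labelled replicates 6 and 7, were at 5.07 and 5.96 for Cxcl10 and at 4.54 and 4.78 for Cxcl13. Replicate 7 was above every lesion of the other 8 numbers for Cxcl10 (highest of those 5.61), Cxcl9 (5.31, against 5.13) and Cxcl11 (5.16, against 4.93), but not for Cxcl13 (highest of those 5.62). The lesion labelled 5 was also the highest of the 16 for Cx3cl1, the membrane-bound ligand fractalkine (8.28, against 6.52 to 7.63), for Cxcr4 (8.34, against 7.07 to 7.92) and for Ccl5, a ligand of Ccr1 (7.75, against 6.21 to 7.52). In all it was the highest for 14 of the 50 genes (28%), against 13.6% of all probe sets. Genes that interferon induces were high there as well, with Isg15 at 9.89 (5.84 to 7.42 in the other lesions), Rsad2 at 10.05 (6.18 to 7.02, and up to 8.28 in wild-type pituitaries), Mx1 at 9.60 (4.55 to 7.64) and Irf7 at 8.80 (5.96 to 7.24). The mean level of the 15 T and NK cell markers was also the highest of the 16 lesions, at 5.84, against 5.21 to 5.68 in the other lesions and 5.37 to 5.46 in wild-type pituitaries. In this lesion 7 of the 15 were above all other lesions, by less than 1 log2 unit each (Cd3g, Cd8b, Cd2, Lck, Klrd1, Nkg7 and Gzma), for example Cd3g at 5.12 (3.22 to 4.45) and Nkg7 at 6.25 (5.00 to 5.83), and the other 8 lay within their range, for example Cd3e at 5.08 (4.73 to 5.62). The mean of the 19 macrophage markers was likewise the highest, at 7.79 (7.02 to 7.72), with 6 of the 19 above all other lesions. Of the rest, 12 lay within the range of the other lesions, and Mrc1 was below all of them, at 6.31 (6.42 to 8.30). Cd163 was at 6.30, against a median of 7.17 in the other lesions. All 3 B and plasma cell markers lay within the range of the other lesions. The part of these genes in the values of this lesion was not tested. Averaged over its 3 lesions, adenoma number 3 was at 6.80 for Cxcl10, against 5.21 to 5.61 in the other 8 adenomas and 6.19, 5.38, 5.70, 5.61 and 5.26 in wild-type pituitaries, and the group difference was −0.07 (95% interval −0.55 to 0.42, limma). Without the lesion labelled 5 this was −0.21 (SE 0.13, adjusted p = 0.29, limma).

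**Figure D4:**
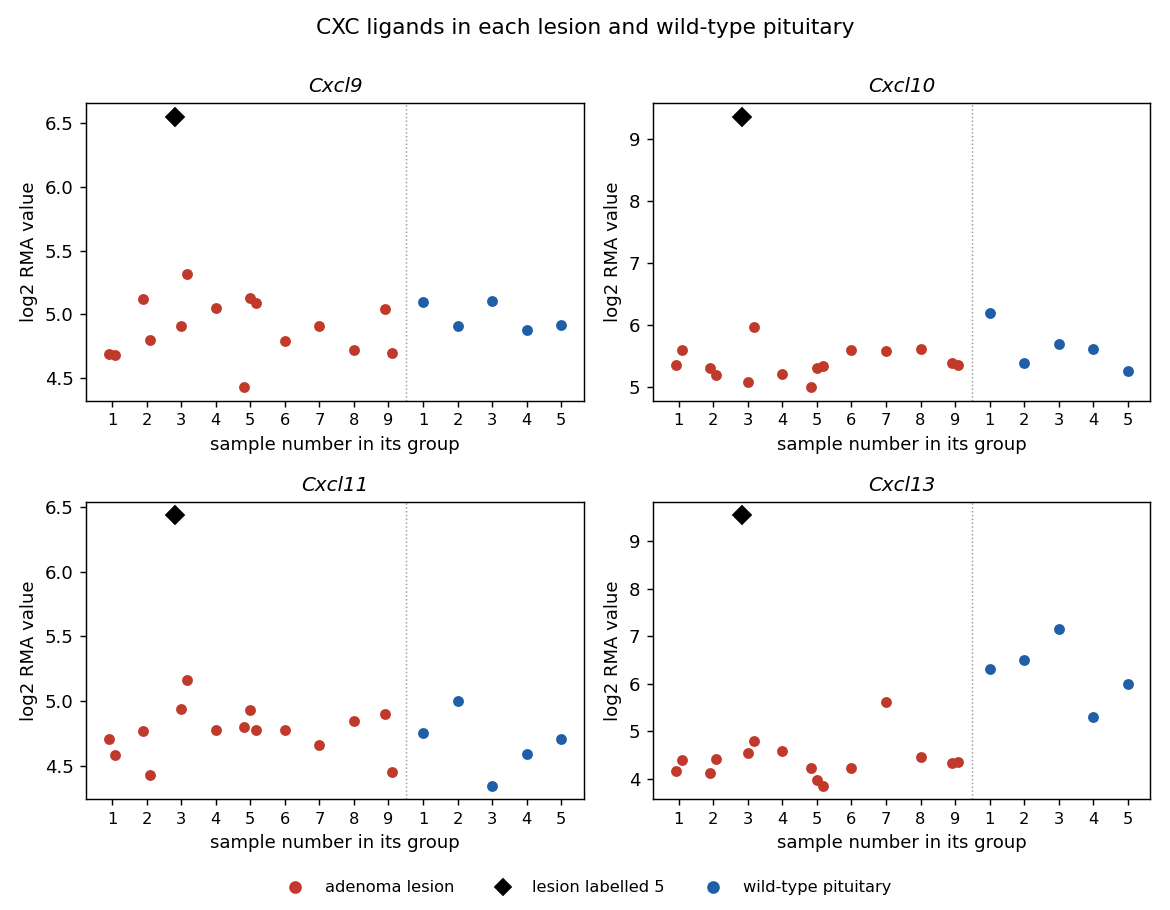
Log2 RMA values (vertical axis) of 4 CXC ligands in each adenoma lesion (red, grouped by adenoma number 1 to 9) and each wild-type pituitary (blue, 1 to 5), with the lesion labelled replicate 5 as a black diamond. The diamond lies above all other samples in each panel, at 9.36 for Cxcl10 and 9.55 for Cxcl13, and the other lesions of number 3 lie well below it, one of them above the lesions of all other numbers for Cxcl9, Cxcl10 and Cxcl11.

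Cxcl11, Cxcl10 and Cxcl9 are neighbours on chromosome 14, and Cxcl13 lies on the same chromosome. The 250 bases before the transcript start of these 4 genes are shown because the genes were high together in 1 lesion. They come from RefSeq (GRCr8), where 39 of the 50 genes had such a sequence, and are written 5′ to 3′ on the gene's strand, with capitals for matches on either strand to the NF-κB consensus and to TGANTCA, the letters that AP-1 factors bind.
Cxcl9 (chr14:16006916-16007165, plus strand): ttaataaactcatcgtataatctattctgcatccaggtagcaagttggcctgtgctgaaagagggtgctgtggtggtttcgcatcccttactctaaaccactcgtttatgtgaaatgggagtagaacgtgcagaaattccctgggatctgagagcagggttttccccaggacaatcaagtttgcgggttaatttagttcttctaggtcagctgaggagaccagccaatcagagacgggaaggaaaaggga
Cxcl10 (chr14:15988816-15989065, plus strand): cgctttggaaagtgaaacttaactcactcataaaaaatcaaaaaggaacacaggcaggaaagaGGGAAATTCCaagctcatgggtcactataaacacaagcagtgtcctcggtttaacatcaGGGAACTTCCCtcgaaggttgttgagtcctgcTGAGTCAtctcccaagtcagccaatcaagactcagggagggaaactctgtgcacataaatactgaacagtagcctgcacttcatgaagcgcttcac
Cxcl11 (chr14:15973478-15973727, plus strand): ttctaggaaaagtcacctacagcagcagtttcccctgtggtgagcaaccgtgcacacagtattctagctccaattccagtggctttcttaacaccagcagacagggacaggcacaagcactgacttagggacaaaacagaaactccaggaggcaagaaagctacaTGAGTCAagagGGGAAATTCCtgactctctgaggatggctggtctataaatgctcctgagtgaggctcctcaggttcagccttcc
Cxcl13 (chr14:13917921-13918170, minus strand): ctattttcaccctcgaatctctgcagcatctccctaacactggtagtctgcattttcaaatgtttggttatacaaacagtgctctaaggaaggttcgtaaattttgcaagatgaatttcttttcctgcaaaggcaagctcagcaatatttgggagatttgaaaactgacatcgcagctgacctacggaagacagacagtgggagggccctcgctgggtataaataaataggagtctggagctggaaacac

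In these windows the NF-κB consensus was found in Cxcl10 and Cxcl11, with the same 10 letters, GGGAAATTCC, at bases 187 to 178 before the start of Cxcl10 and 74 to 65 before that of Cxcl11. A second match in Cxcl10, at bases 128 to 119, overlaps one on the opposite strand shifted by 1 base. TGANTCA, which reads the same on both strands, was found in both genes, at bases 96 to 90 in Cxcl10 and 85 to 79 in Cxcl11, and overlaps no NF-κB match. Neither motif was found in these windows of Cxcl9 and Cxcl13. Motifs of factors activated by interferons were not searched for in any window. Of all 33469 promoters of this length, 6.33% hold the NF-κB consensus and 6.34% hold TGANTCA, and among the 39 members with a sequence 9 (23.1%) and 7 (17.9%) do. They are matches of letters, and whether any factor was bound was not measured.

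The spread between lesions of 1 rat differed among the genes, and is given here as a description. For Cxcl14, Ackr3 and Ccl6 the SD between lesions of 1 number was 0.11, 0.20 and 0.19, against an SD of 0.36, 0.55 and 0.60 over the 9 adenoma values. For Cxcl10 and Cxcl13 the SD between lesions of 1 number was 1.22 and 1.52. The SD over the 9 adenoma values, which are averages over lesions, was 0.49 and 0.76. For both genes the lesion labelled 5 (9.36 and 9.55) was far above the other lesions of its number. The lesions of numbers 1, 2, 5 and 9 lay at 4.99 to 5.59 for Cxcl10 and at 3.85 to 4.42 for Cxcl13.

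No difference by sex or age was called. An interaction of genotype and sex was called for 0 of the 50 genes (0% of all probe sets, limma), and 3 genes had an unadjusted p under 0.05, against 6.78% of all probe sets. The smallest of these belonged to Cxcl12, with a log2 fold change of −0.18 in females and −1.02 in males (unadjusted p = 0.0062, adjusted p = 0.533, limma). Its wild-type values were 7.70, 7.72 and 7.49 in the 3 males and 7.00 and 6.89 in the 2 females, while adenomas of both sexes lay between 6.27 and 7.04. A slope with age over the 9 adenomas was called for 0 of the 50 genes (0.00342% of all probe sets), and 8 genes had an unadjusted p under 0.05, against 11.8% of all probe sets. The smallest belonged to Ccl24, another eotaxin, with a slope of −0.10 log2 units per month (95% interval −0.15 to −0.06, adjusted p = 0.137, limma).

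No gene was correlated with the macrophage level over the 9 adenomas after adjustment over the 50 relations, and none had an unadjusted p under 0.05. The smallest p belonged to Ccl3, a macrophage inflammatory protein that binds Ccr1 (Pearson's r 0.65, Spearman's rho 0.65, exact permutation p = 0.0541, two-sided, adjusted p = 0.863), with r of 0.71 without the 2 adenomas farthest from the median macrophage level, and 0.87 and 0.67 within prefixes 08 and 09. For Ccl7 and Ccl2 r was −0.07 and −0.14 (exact permutation p = 0.875 and 0.749). The macrophage genes themselves included Cd163 (log2 fold change 1.46), Mrc1 (1.24) and C1qa (1.08), which were higher in adenomas.

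Genes that act beside the chemokines were taken from lists of signalling, induction and processing genes. Their shares stand beside the 8.49% higher and 9.06% lower of all probe sets, or 12% and 9.63% of singly named ones. Of 26 genes of chemokine receptor signalling 9 were higher and 1 lower (34.6% and 3.85%, median log2 fold change 0.24, against −0.03 over all probe sets). The higher ones included Grk5, a kinase that desensitizes G protein-coupled receptors (log2 fold change 2.11), the β-arrestin gene Arrb2 (0.64), the Rac exchange factor gene Prex1 (1.48) and the Src family kinase gene Lyn (1.17), while Elmo1, a partner of Dock proteins in Rac activation, was lower (−0.88). These proteins also serve many other receptors. Of 22 genes linked to the induction of chemokines, not all of them inducers, 8 were higher and 0 lower (36.4% and 0%, median 0.07). The higher ones included the interleukin-1 receptor gene Il1r1 (0.75), Stat3 (0.52), Nfkb2 (0.47) and the adaptor gene Myd88 (0.45). The cytokine genes of this list did not pass, with log2 fold changes of −0.16 for Tnf, 0.03 for Il1b, 0.13 for Il6 and −0.11 for Ifng. Of 12 genes of chemokine processing and presentation 2 were higher and 1 lower (16.7% and 8.33%), namely the heparan sulfate polymerase gene Ext1 (0.69), Glg1 (0.24) and the syndecan gene Sdc2 (−0.74). Of 8 chemokine-related genes outside the naming rule none was called, including the fractalkine receptor gene Cx3cr1 (0.22, adjusted p = 0.18, limma).

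Markers of the other leukocytes were mostly not called. Of 15 T and NK cell markers 1 was higher (6.67%, against 8.49% of all probe sets), Il7r (log2 fold change 0.52, adjusted p = 0.0262, limma), and 0 lower. None of 3 B and plasma cell, 7 neutrophil, 4 mast cell and 4 dendritic cell markers was called. Of 11 pericyte and fibroblast markers 5 were higher and 1 lower (45.5% and 9.09%). The higher ones were Rgs5 (log2 fold change 1.12), Tagln (0.86), Col3a1 (0.69), Pdgfrb (0.62) and Acta2 (0.29), and the lower one was Pdgfra (−0.66). Of those not called, Dcn and Lum were at −0.87 and −0.74, and Col1a1, Col1a2 and Cspg4 at 0.23, 0.21 and 0.02. Of 12 endothelial markers 3 were higher and 0 lower (25% and 0%). The mean level of the T and NK cell markers was 5.24 to 5.71 in adenomas, against 5.37 to 5.46 in wild-type pituitaries, and that of the neutrophil markers 5.10 to 5.28 in adenomas, against 5.06 to 5.30 in wild-type pituitaries.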

How the data were processed

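Affymetrix Rat Gene 1.0 ST arrays measured RNA of 16 adenoma lesions and of 5 wild-type pituitaries. The authors made the deposited log2 values in Affymetrix Expression Console with RMA, summarised per gene by median polish after sketch-quantile normalization. Versions: not given in the sources used here. This normalization can mask a common shift of many genes, and folds of dim probe sets come out too small. The number of arrays limits the precision.

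Lesions sharing a sample number, read as 1 animal, were averaged. The study describes more rats than the labels give numbers. limma 3.58.1 in R 4.3.3 fitted all 29214 probe sets with Benjamini-Hochberg adjustment, calling an adjusted p under 0.05. It was tested on simulated data. Of the probe sets, 15310 carry 1 symbol, 323 several and 13581 none, and only the first were named. All 50 members matched a RefSeq symbol. Sex was tested as an interaction and age as a slope, and macrophage correlations by exact permutation.

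The members and gene lists were chosen with earlier results of these data known. Values are given for members called or with an unadjusted p under 0.05, for Cxcl12, Cxcr4, Ackr3 and Cx3cl1, and for the 5 with the largest SD over adenomas. Other genes were named after their values were seen.

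Alternatives were lesions as separate samples, the methods' t-test, number prefix, replicate number and sex in the fit, younger adenomas, a filter on dim probe sets, other normalization, robust fitting, other thresholds, and each sample number or the outlying lesion left out.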

Additional observations from a re-analysis of the deposited data

Results flagged for a closer look

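Among 100 groups of values (50 genes in each genotype), 6 held a value whose gap to the nearest other value was large for the range of its group, where chance gives about 1 in 20. In adenoma number 3, Cxcl10 at 6.80, Cxcl11 at 5.51 and Cxcl9 at 5.59 stood above the other 8 adenomas. All 3 were highest in the lesion labelled replicate 5. Without this lesion number 3 was at 5.52 for Cxcl10, within the range of the other adenomas. It was still the highest adenoma for Cxcl11 (5.05, next 4.85) and Cxcl9 (5.11, next 5.05). Ackr2, an atypical receptor that removes inflammatory CC chemokines, was high in adenoma number 2 at 6.86, and Ccl24 was high in adenoma number 4 at 6.15. Ccr9, a receptor of gut-homing lymphocytes, was low in wild-type pituitary 3 at 3.90.

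The estimated adenoma effect differed in sign between the sexes for Ccl20 and Cxcl6, with all adenomas of 1 sex on 1 side of the wild-type mean of that sex. For Ccl20 the male adenomas lay only −0.019 to −0.005 from the male wild-type mean. The female minus male difference of the effect was 0.24 for Ccl20 (0.22 in females and −0.01 in males) and 0.27 for Cxcl6 (0.17 in females and −0.10 in males). Neither difference passed the interaction test in limma (adjusted p = 0.845 and 0.822).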

How the results depend on the processing

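The count of higher genes was 3 and that of lower genes 6. With the methods' t-test on the 9 and 5 values, 1 gene was higher. With prefix 08 alone 0 were higher and 0 lower, and with prefix 09 alone 1 and 3. With adenomas of 7 or 8 months alone the counts were 0 and 0. The fits on 1 prefix or on younger adenomas held fewer samples. That t-test used the same values as the main fit, and Ccl2 and Ccl7 did not pass in it (adjusted p = 0.0616 and 0.0558). In the fit on younger adenomas some log2 fold changes were also smaller, at 0.45 for Ccl6, −0.55 for Cxcl14 and −0.13 for Ccl17. Those of Ccl2, Ccl7 and Ackr3 were larger, at 0.40, 0.82 and −1.18. With a fold over 2 also required, 1 gene was higher and 2 were lower. Leaving out 1 sample number in turn gave 1 to 3 higher genes (1 without wild-type pituitary 5 or adenoma number 3) and 4 to 8 lower genes (4 without wild-type pituitary 4, 8 without wild-type pituitary 2), and 0 to 0 for sex, age and the macrophage level. Adenoma replicates 1 and 2 share a sample number, while wild-type replicates 1 and 2 do not. Adenoma and wild-type arrays with the same replicate number had correlations of deviations from −0.05 to 0.20. No mismatched pairs were set beside them, so these values cannot show whether replicate numbers pair the samples. With the replicate number as a block 1 gene was higher and 2 were lower. Cxcl10, which was not called, changed sign to 0.0071 with the 16 lesions as independent samples, in limma and in the methods' t-test. It also changed sign to 0.53 with the replicate block, 0.013 with prefix 09 alone, 0.010 with quantile normalization and 0.075 without wild-type pituitary 1. With the sample number as a random block Cxcl10 kept its sign. Its range was −0.22 to 0.075 over the fits that left out 1 number. Cx3cl1, also not called, changed sign to 0.047 with the replicate block and 0.024 with prefix 08 alone. The cause was not tested. Counts for the sex, age and macrophage results were 0 in all alternatives run. The second probe set of a gene was not run, since each gene had 1. The fits without the lesion labelled replicate 5, the methods' t-test on the 9 and 5 values and the adjustment over singly named probe sets were chosen after the data had been seen.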
